A study of Mus musculus with 8 samples.

Results

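The barcodes described here are the 120 of 3000 with the highest combined level of Neurod1, Lhx9, Grik4 and Calb2 in a droplet library of sorted cells from mouse cortex. They were drawn from the 2225 barcodes that had at most 25000 UMIs (unique molecular identifiers, which count captured transcripts) and fewer than 5 Reln UMIs per 10000. Each of the 4 genes was scaled over these eligible barcodes as a z-score of log(1 + UMIs per 10000), the 4 z-scores were averaged, and the members were chosen by these measured values. The other 2105 eligible barcodes served as the reference and are called the remaining barcodes. A further 288 barcodes with at most 25000 UMIs lay at or above the Reln limit and are called Reln-high, and 487 barcodes lay above 25000 UMIs.

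All cells came from the cerebral cortex of E15.5 embryos of the Tg(Ebf2-EGFP)FB58Gsat strain, in which a transgene carrying Ebf2 regulatory sequence drives EGFP, and EGFP positive cells were taken by FACS. There was 1 group, with no treatment and no unsorted or EGFP negative control in these data. The labels list 8 samples from about 8 pooled embryos, but their cells lie in a single matrix that does not name the sample of a cell, so the data are 1 library. No test was therefore made, and the 95% intervals given reflect only the error of counting, of UMIs for levels and ratios and of barcodes for shares. Intervals of shares take barcodes as independent, and all leave out the spread between animals.

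Neurod1 encodes a basic helix-loop-helix (bHLH) transcription factor that is switched on as neuronal precursors leave the cell cycle and differentiate. Lhx9 encodes a LIM homeodomain factor of the developing forebrain, Grik4 a kainate receptor subunit, and Calb2 the calcium-binding protein calretinin, a marker of Cajal-Retzius (CR) neurons and of several other neuron types. In the embryonic forebrain Neurod1 also marks granule neuron precursors of the dentate gyrus, where Prox1 is the best known identity factor, and Zbtb20 is a zinc-finger repressor known for its part in hippocampal development. The question put to the data was which region or stage these barcodes resemble. For orientation, the 250 bases upstream of 1 annotated transcript start are shown for 4 genes on which the results turn, the selecting genes Neurod1 and Lhx9, and Zbtb20 and Prox1, which are among the 12 higher genes named below. The sequences are from RefSeq (GRCm38.p6), 5′ to 3′ on the strand of the gene, and capitals mark every match to CANNTG, the E-box that bHLH factors bind, which reads the same on both strands.
Neurod1: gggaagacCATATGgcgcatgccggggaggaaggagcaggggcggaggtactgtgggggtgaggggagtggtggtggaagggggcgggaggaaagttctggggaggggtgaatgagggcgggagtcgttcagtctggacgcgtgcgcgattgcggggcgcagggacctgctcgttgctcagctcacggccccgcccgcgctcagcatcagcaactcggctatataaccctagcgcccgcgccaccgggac
Lhx9: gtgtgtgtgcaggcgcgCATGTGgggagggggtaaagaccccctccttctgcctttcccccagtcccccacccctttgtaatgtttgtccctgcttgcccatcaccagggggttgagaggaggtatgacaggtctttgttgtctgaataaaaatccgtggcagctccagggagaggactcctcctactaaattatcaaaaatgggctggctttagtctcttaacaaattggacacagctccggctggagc
Zbtb20: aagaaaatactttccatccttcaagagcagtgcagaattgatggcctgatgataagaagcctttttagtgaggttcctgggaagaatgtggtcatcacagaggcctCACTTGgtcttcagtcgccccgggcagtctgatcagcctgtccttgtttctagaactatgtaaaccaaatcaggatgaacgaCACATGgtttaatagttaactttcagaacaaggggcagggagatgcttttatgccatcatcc
Prox1: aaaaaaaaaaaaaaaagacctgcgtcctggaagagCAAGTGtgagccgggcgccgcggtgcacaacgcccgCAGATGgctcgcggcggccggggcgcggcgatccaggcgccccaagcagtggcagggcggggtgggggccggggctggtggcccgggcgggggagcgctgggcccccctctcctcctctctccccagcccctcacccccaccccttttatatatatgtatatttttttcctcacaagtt
The Neurod1 window lies on the minus strand at chr2:79456637-79456886, that of Lhx9 on the minus strand at chr1:138842445-138842694, that of Zbtb20 on the plus strand at chr16:43247034-43247283, and that of Prox1 on the minus strand at chr1:190170828-190171077. The Zbtb20 and Lhx9 windows lie inside the annotated span of their genes, before the start of an internal transcript. Neurod1 and Lhx9 had 1 match each, and Zbtb20 and Prox1 had 2 each. Of 27025 such windows, 1 for each gene in the table, 66.0% held at least 1 match, so a match says little about a single gene. Of the 4 selecting genes and the 12 higher genes named below, 10 had an entry, and 7 of these held a match.

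The selecting genes marked different numbers of members. Neurod1 had at least 1 UMI in 107 of 120 members, Calb2 in 114, Lhx9 in 89 and Grik4 in 52. Neurod1 ran from 0 to 28.4 UMIs per 10000 with a median of 7.86 in the members, and from 0 to 15.4 with a median of 0 in the remaining barcodes. Calb2 ran from 0 to 42.6 with a median of 8.84 in the members, and from 0 to 95.7 with a median of 0 in the remaining barcodes. The ranges overlapped for every one of the 4 genes, so no single gene set the members apart. Lhx9 had a median of 0.970 UMIs per 10000 and a highest value of 5.20 in the members, against 4.37 as the highest remaining value. Grik4 had a median of 0 and a highest value of 2.01, which left its share of members with a UMI most exposed to depth. All 4 genes were detected in 29 members, 3 in 65, 2 in 25 and 1 in a single member, while 43 of the remaining barcodes had 3 of the genes and 0 had all 4. In UMIs of a gene per 1000000 UMIs (CPM, over summed barcodes), Neurod1 was at 879 in the members and 32.2 in the remaining barcodes, Calb2 at 1046 and 53.1, Lhx9 at 126 and 7.76, and Grik4 at 33.3 and 2.48. These levels follow from the choice and are a description.

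**Figure D1:**
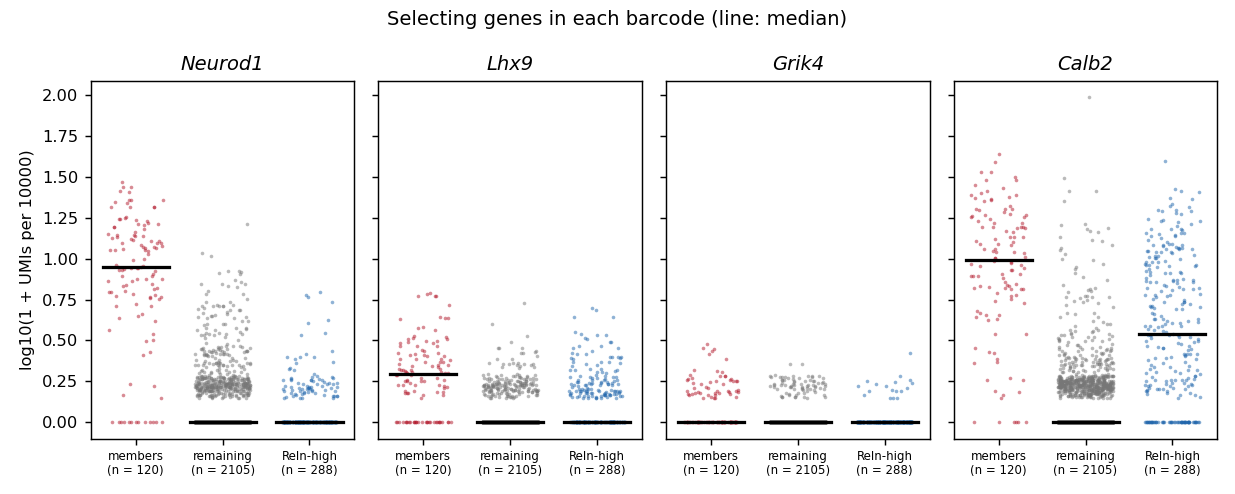
The level of each selecting gene in every barcode, as log10(1 + UMIs per 10000), for 120 members, 2105 remaining and 288 Reln-high barcodes, with the black line at the median of each set. Neurod1 and Calb2 stand high in most members, and Calb2 is also high in many Reln-high barcodes. Lhx9 and Grik4 lie low, with member medians of 0.970 and 0 UMIs per 10000.

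The choice has no natural edge. The mean z-score fell from 4.24 in the highest barcode to 2.17 at rank 60, was 1.56 and 1.55 in the last 2 members and 1.55 and 1.53 in the first 2 barcodes outside, and was 0.68 at rank 240. When each gene was left out of the score in turn and measured in the 120 barcodes that the other 3 genes then chose, it was still higher there than in the other eligible barcodes. The log2 CPM ratio was 3.86 for Neurod1 (interval 3.75 to 3.96), 3.35 for Calb2 (3.25 to 3.44), 3.06 for Lhx9 (2.79 to 3.32) and 2.76 for Grik4 (2.22 to 3.27). Between 97 and 104 of the 120 barcodes in these repeats were also members. When members were chosen on 1 random part of the UMIs and measured on the other, the ratios held out were 3.52 for Neurod1 and 2.37 for Lhx9. The selecting genes were set together with earlier results of these data known. The held-out ratios are therefore a description and no test of the grouping.

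The members were deeper than the remaining barcodes, with medians of 17729.5 and 14753 UMIs and of 4425 and 3936 genes. With every barcode thinned to 10718 UMIs, the lowest total, the medians were 3438 and 3321 genes. The mitochondrial share had medians of 3.01% and 2.92%. UMIs of both Xist and a Y-linked gene, which a barcode of 1 embryo should not hold together, were found in 9.17% of members and 8.41% of remaining barcodes. Of the 69 barcodes with the highest doublet scores only 7 were eligible and 0 were members, so this 0 says little. The median doublet score was 0.032 in the members and 0.035 in the remaining barcodes. All 3000 barcodes were listed once and carried 1 suffix, so no barcode was shared between libraries.

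The members were neurons by their transcripts. Sox11 and Sox4, factors of postmitotic neuronal differentiation, and Dcx and Mapt, which bind microtubules in young neurons, were each detected in at least 119 of 120 members. Neurod2 and Neurod6, bHLH factors of pallial excitatory neurons, were detected in 115 members each, at 477 and 934 CPM against 730 and 1345 CPM in the remaining barcodes. Of the 14 genes of inhibitory neurons, Slc32a1, Dlx1, Dlx6os1, Lhx6 and Htr3a had 0 UMIs in the members, and Gad1 and Gad2 had 7 and 1. A count of 0 over the summed member UMIs has an exact Poisson interval up to 1.78 CPM. In the remaining barcodes the genes at 0 ran from 0.28 to 1.15 CPM, so these zeros do not set the members apart. Gad1 was at 3.38 CPM in the members against 0.96 CPM, a log2 ratio of 1.81 (0.39 to 3.02). Sst and Npy, the 2 measured genes of the list, were lower, at 2.90 and 17.4 CPM against 17.3 and 97.7 CPM. The haemoglobin genes were low, with 0 members and 2 remaining barcodes at 10 or more of these UMIs. The genes of vascular, immune and glial cells Cx3cr1, Csf1r, Cldn5, Col3a1, Olig1 and Olig2 were at 0 UMIs in the members. Of these genes only Olig1, at 3.01 CPM, lay above 1.78 CPM in the remaining barcodes, so the other zeros say little. The transcript of the sorting gene itself was nearly absent: Ebf2 had 3 UMIs in the members, 1.45 CPM, against 2.27 CPM in the remaining and 32.5 CPM in the Reln-high barcodes. EGFP transcripts were not analysed here.

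By the rest of their transcriptome most members sat together. K-means clustering of the eligible barcodes into 8 clusters was made without the 4 selecting genes and Reln. It placed 84 of 120 members, 70.0% (exact interval 61.0 to 78.0%), in a cluster of 111 barcodes, here cluster 1, whose leading genes were Zbtb20, Cyp26b1, Col12a1, Synpr and Cd9. Of the others, 18 lay in cluster 2, which held 380 barcodes and was led by Rnd2, Nrp1, Fam210b and Lhx2, and 14 in cluster 3, which held 118 barcodes and was led by Snhg11, Pbx3, Tshz2 and Nr2f2. The last 4 members were spread over 2 further clusters, and 0 members lay in the largest cluster of 708 barcodes, among whose leading genes was Fezf2. Members thus made up 75.7% of cluster 1 but only 4.74% of cluster 2 and 11.9% of cluster 3. Without clusters, 66.3% of the 15 nearest neighbours of a member were members on average, where members were 5.39% of all eligible barcodes. For 77 members at least 50% of the neighbours were members, and for 8 none was. Clusters made from these cells are no test of the grouping.

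The genes that differed were few beside the transcriptome as a whole. Of 10362 genes with at least 100 UMIs, 194 were at least 2-fold higher in the members (1.87% of genes tested) and 130 at least 2-fold lower (1.25%), with 10 CPM added to both levels before the ratio. The median over all genes was a log2 fold difference of 0.02. Of these, 31 genes were at least 4-fold higher and 21 at least 4-fold lower. Ratios in the sentences that follow are plain log2 CPM ratios with their intervals, while calls and list medians use the fold with 10 CPM added, which shrinks low genes.

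Zbtb20 stood first. It had from 0 to 63 UMIs with a median of 24 in the members and was detected in 110 of 120, against 29.2% of the remaining barcodes. Its level was 1352 CPM (1303 to 1403) against 71.2 CPM, a log2 ratio of 4.25 (4.17 to 4.33), or 19.0-fold. Prox1, the homeobox factor of dentate granule neurons, was at 63.3 CPM against 1.37 CPM, a log2 ratio of 5.53 (5.03 to 6.06). It was present in only 36 members, with up to 9 UMIs in a barcode. The antisense transcript Prox1os was also higher, with a log2 ratio of 5.68 (5.09 to 6.31). Whether counting used strand is not given in the sources used here, so reads of Prox1 and Prox1os cannot be told apart with certainty.

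The other leading genes had varied products. Synpr, which encodes the synaptic vesicle protein synaptoporin, was at 142 CPM against 6.52 CPM and was detected in 67 members. Cyp26b1, an enzyme that degrades retinoic acid, was at 106 CPM against 4.35 CPM, and Col12a1, a collagen chain, at 89.4 CPM against 2.14 CPM. Cd9, a tetraspanin of the cell surface, reached 227 CPM against 26.6 CPM and was found in 94 members. Sema3c, a secreted guidance cue, was at 159 CPM against 16.5 CPM in 91 members, and the growth factor receptor gene Fgfr1 at 397 CPM against 61.7 CPM in 100 members. Tmem132c had the largest plain ratio of the 12, with a log2 value of 5.93 (5.34 to 6.58), at a level of 55.1 CPM against 0.901 CPM. Mfap4, an extracellular microfibril protein, Sln, a regulator of the calcium pump of muscle, and 1810041L15Rik completed the 12, with log2 ratios of 3.38, 3.39 and 3.33. Thinning to equal depth kept each of these shares apart: Zbtb20 was then detected in 90.8% of members against 24.0% of remaining barcodes, Col12a1 in 45.0% against 1.66%, and Sema3c in 70.0% against 11.6%.

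Lower genes included regulators of deep-layer projection neurons. Sox5, a factor that times corticofugal neuron generation, was at 31.4 CPM against 289 CPM, a log2 ratio of -3.20 (-3.57 to -2.85), and was detected in 43 of 120 members against 89.5% of remaining barcodes. Cdh13, an adhesion molecule anchored in the membrane, was at 36.7 CPM against 330 CPM. Ldb2, which encodes a cofactor of LIM proteins, had the lowest plain ratio, -3.82 (-4.78 to -3.02), with UMIs in 10 members. Mef2c, an activity-dependent transcription factor, was at 119 CPM against 709 CPM and remained detectable in 79 members. Lpl, Dync1i1, Sla, Lmo3, Mpped1, Ppp1r1b, Tox and B3gat1 had log2 ratios between -3.36 and -2.58. The lower genes were not absent from the members as a class, since Mpped1 and Dync1i1 still had UMIs in 60 and 58 of them.

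**Figure D2:**
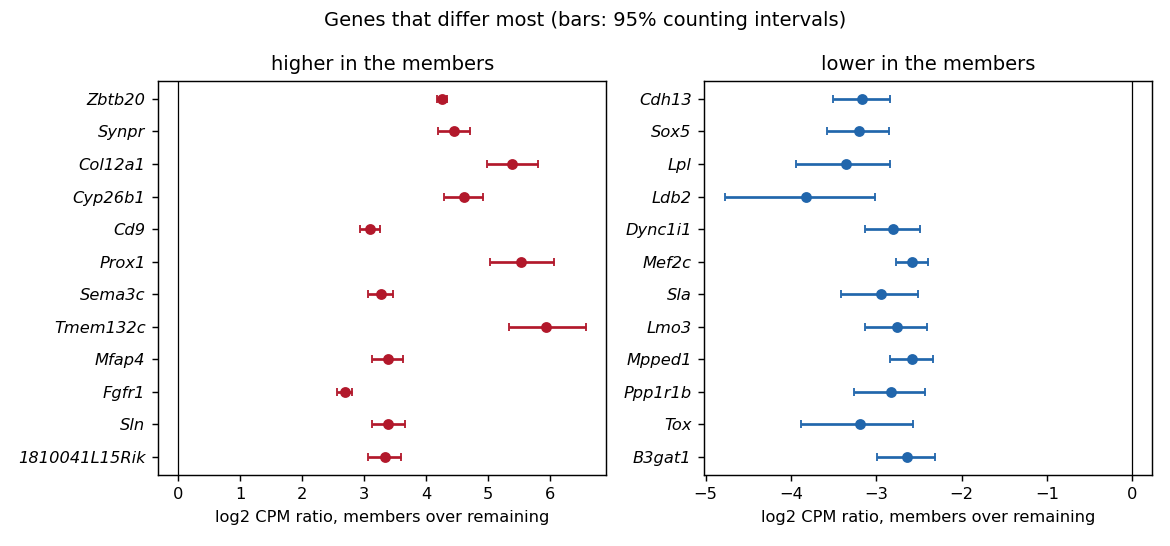
The 12 genes highest and the 12 lowest in the members by fold with 10 CPM added, plotted as plain log2 CPM ratios of 120 members over 2105 remaining barcodes with 95% counting intervals. Tmem132c, Prox1 and Col12a1 have the largest ratios and Ldb2 the lowest.

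The lists of region markers gave no region in which the whole list was higher. Counts of called list genes, here and below, stand beside shares of 1.87% higher and 1.25% lower over all genes tested. Among 16 hippocampal genes, 10 had enough UMIs, of which 3 were at least 2-fold higher (Zbtb20, Prox1 and Lef1, a Wnt-responsive factor) and 1 lower (Spock1), with a median log2 fold of 0.47 beside 0.02 over all genes. This median was -0.019 when the Reln limit was dropped and 0.090 when genes with at least 20 UMIs were kept, so it rests on which genes and barcodes enter. It was also not the highest of the region lists. The median was 0.65 for thalamic and diencephalic genes (5 measured) and 0.44 for CR neuron genes (8 measured). It was 0.38 for olfactory bulb mitral genes (5 measured) and 0.06 for amygdala and ventral pallium genes (7 measured). Lef1 was at 26.1 CPM against 4.97 CPM. Fzd9, Nr2f2 and Ephb1 were not called, with log2 ratios of 1.38 (0.51 to 2.15), 0.64 (0.29 to 0.98) and 0.55 (0.34 to 0.75). Meis2, Epha7 and Fxyd7 had log2 ratios of -0.31, -0.22 and 0.10. The pyramidal genes Man1a, Wfs1 and Fibcd1 had 3, 6 and 3 UMIs in the members and 31, 75 and 61 in the remaining barcodes. Their ratio intervals include 0, as do those of Nr3c2 and Kcnq5. Dkk3, with too few UMIs to be measured, had 14 in 12 members, a log2 ratio of 1.86 (0.91 to 2.72). Of 15 thalamic and diencephalic genes, Gbx2, Olig3, Pou4f1, Irx1, Irx2, Irx3, Irx5 and Shox2 had 0 UMIs in the members. Each had only 0 to 5 UMIs over all remaining barcodes, so these zeros say little. Tcf7l2 had UMIs in only 5 members, with 66.0% of these UMIs in 1 barcode. Lef1 and Barhl2, the called genes of that list, were at 26.1 and 32.4 CPM, and 25.4% of the Barhl2 UMIs were in 1 barcode. Slc17a6 was not called, at 21.3 CPM against 9.88 CPM, a log2 ratio of 1.11 (0.62 to 1.56). Rora, with too few UMIs to be measured, had 10 in 8 members, a log2 ratio of 2.82 (1.58 to 3.96). Tfap2d and Dbx1 of the amygdala and ventral pallium list and Tbx21 of the mitral list were at 0 UMIs. In the remaining barcodes they had 11, 0 and 0 UMIs. Sema5a (log2 ratio 3.05) and Nrp1 (1.87) of these lists were higher. Lmo3 of the amygdala and ventral pallium list was lower, at 31.9 CPM against 216 CPM, and 1 gene was called in each direction of its 7 measured genes.

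CR neuron genes were higher only in part. Of 8 measured genes, Cxcr4, the chemokine receptor that guides tangential migration, was at 58.0 CPM against 3.23 CPM, and Nhlh2, a bHLH factor, at 119 CPM against 40.1 CPM. Trp73, Lhx5 and Ebf3 had log2 ratios of 0.23, 0.27 and -0.03, with intervals that include 0. Ebf1 (1.27, 0.78 to 1.72) and Cdkn1a (1.15, 0.68 to 1.59) had plain ratios above 2-fold that were not called with 10 CPM added, and 53.3% and 33.3% of their member UMIs were in 1 barcode. The defining gene Reln was held under its limit by the choice.

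The lists of cortical layers had medians below that of all genes, at -0.80 for subplate, -0.69 for layer 6, -0.39 for layer 5 and -0.85 for upper layers. Of 8 layer 6 genes, Sox5, Tle4 and Ntsr1 were lower, where 1.25% of all genes tested were. None was higher, which is near the 1.87% over all genes and no result about the members. Of 8 layer 5 genes, Fezf2, Bcl11b and Ldb2 were lower and Pcp4 higher. Fezf2, which specifies subcerebral projection neurons, was at 162 CPM against 386 CPM, and Bcl11b at 147 CPM against 522 CPM, whereas Pcp4, a calmodulin-binding peptide, was at 682 CPM against 179 CPM. Lhx2, listed here with the upper layers and active across the early pallium, was at 303 CPM against 77.3 CPM. Pallial patterning genes differed in both directions: Emx2 was at 137 CPM against 17.8 CPM, a log2 ratio of 2.94 (2.73 to 3.15), and Emx1 at 181 CPM against 70.0 CPM, while Id2 was at 262 CPM against 1002 CPM.

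Genes of newborn neurons and of intermediate progenitors were higher in part, as were those of radial glia. Among 12 genes of newborn and migrating neurons, Nrp1, a semaphorin receptor, and Nhlh1, a bHLH factor of cells that have just left the cycle, were at least 2-fold higher. In that list 0 genes were lower, which is near the share of 1.25% over all genes, and the median was 0.34. Sox4 fell just short of a call as lower, at 1672 CPM against 3329 CPM, a log2 ratio of -0.99 (-1.04 to -0.94). Pcdh8 had a log2 ratio of -0.80, and the summed list was at 6272 CPM against 7078 CPM. Nhlh1 was at 30.0 CPM against 2.45 CPM and was found in 43 members. Of 7 measured genes of intermediate progenitors, Sstr2, Gadd45g and Hes6 were higher, at 152, 136 and 272 CPM against 23.5, 44.0 and 125 CPM. The defining gene of that list, Eomes, was at 9.18 CPM with UMIs in 8 members, and 31.6% of these UMIs came from 1 barcode. Of 7 measured genes of radial glia, Hopx was higher, at 30.9 CPM against 5.16 CPM, and the median was 0.44. Vim, an intermediate filament gene, was at 219 CPM against 107 CPM and Pax6, a factor of cortical progenitors, at 14.5 CPM against 4.41 CPM, with 26.7% of its member UMIs in 1 barcode. Of 7 measured cell cycle genes 0 were called, which is near the shares of 1.87% higher and 1.25% lower over all genes and no result about the members. In the members Top2a and Ccnb1 had 0 UMIs, Mki67 had 1, and Pcna was at 39.1 CPM against 54.0 CPM. Of 13 measured genes of maturing neurons, Nefl and Rbfox3 were higher, at 67.7 and 132 CPM against 19.8 and 52.1 CPM, and the median was 0.09.

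The families of the selecting genes were counted beside the shares over all genes, 1.87% higher and 1.25% lower. Of 11 measured bHLH genes, Nhlh1, Nhlh2, Bhlhe22 and Tcf4 were higher and Id2, an inhibitor of bHLH factors, lower. Bhlhe22 was at 293 CPM against 80.0 CPM and Tcf4, a partner of many bHLH factors, at 867 CPM against 394 CPM. Of 8 measured LIM genes, Lhx2 and Lmo2 were higher and Lmo1, Lmo3 and Ldb2 lower. Of 11 measured ionotropic glutamate receptor genes beside Grik4, 0 were higher, which is near that background, while the subunit genes Grik3 and Gria3 were lower, at 9.67 and 7.25 CPM against 30.2 and 28.6 CPM. Of 11 calcium-binding proteins beside Calb2, Hpcal1 was higher, at 151 CPM against 29.9 CPM. Among Wnt genes, Lef1, Nkd1 and the ligand gene Wnt5a were higher and Sfrp1, Wnt7b and Rspo3 lower. Wnt5a was at 40.6 CPM against 3.73 CPM.

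**Figure D3:**
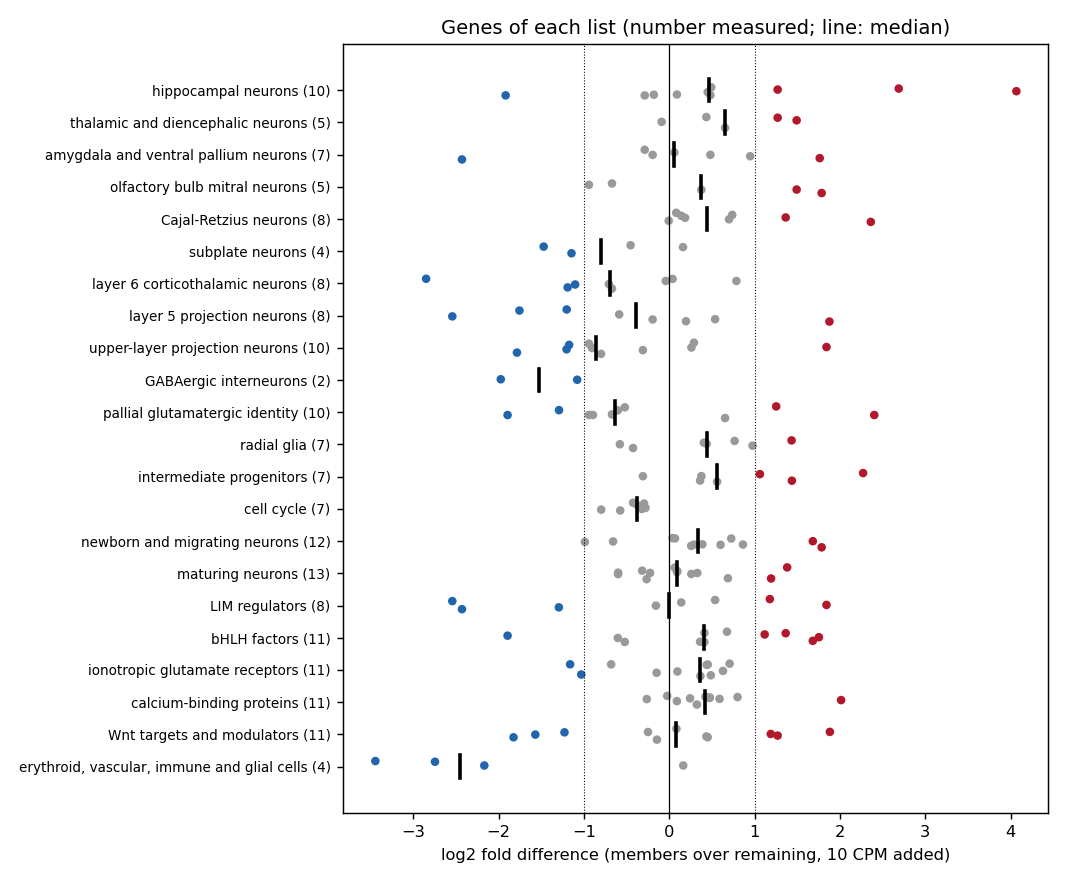
Log2 fold differences (members over remaining barcodes, 10 CPM added) of every measured gene of 22 lists, with the list median as a black line and dotted lines at 2-fold. Red points are at least 2-fold higher and blue points at least 2-fold lower. Zbtb20 and Prox1 stand far to the right of the other hippocampal genes, and most layer genes lie left of 0.

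The 120 members were not uniform, and the 3 clusters that hold nearly all of them reached the score in different ways. Neurod1 was at 1089 CPM in the members of cluster 1, 675 CPM in those of cluster 2 and 32.6 CPM in those of cluster 3, which is about the level of the remaining barcodes. Calb2 was high in all 3 sets, at 1181, 735 and 811 CPM, and Lhx9 at 123, 113 and 171 CPM. Grik4 was at 33.3, 6.65 and 57.0 CPM. Zbtb20 followed Neurod1, at 1695, 941 and 32.6 CPM. The 14 members in cluster 3 had 69.3 CPM of Neurod6, against 888 and 1925 CPM in the members of clusters 1 and 2, and 799 CPM of Meis2, against 25.8 and 186 CPM. They also had more Fxyd7 and Nr2f2 than the members of clusters 1 and 2, at 489 and 147 CPM. Meis1 and Barhl2 were at 130 and 261 CPM in them, with 37.5% and 25.4% of all member UMIs in 1 barcode. The 18 members in cluster 2 had more Rnd2 (316 CPM), Lhx2 (532 CPM) and Vim (645 CPM) than those of cluster 1, which had 51.6, 283 and 165 CPM. With 14 and 18 barcodes these values rest on few cells. With only the members of cluster 1, 238 genes were at least 2-fold higher than in the remaining barcodes and 206 lower, and 183 of the 194 higher genes were among the 238.

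**Figure D4:**
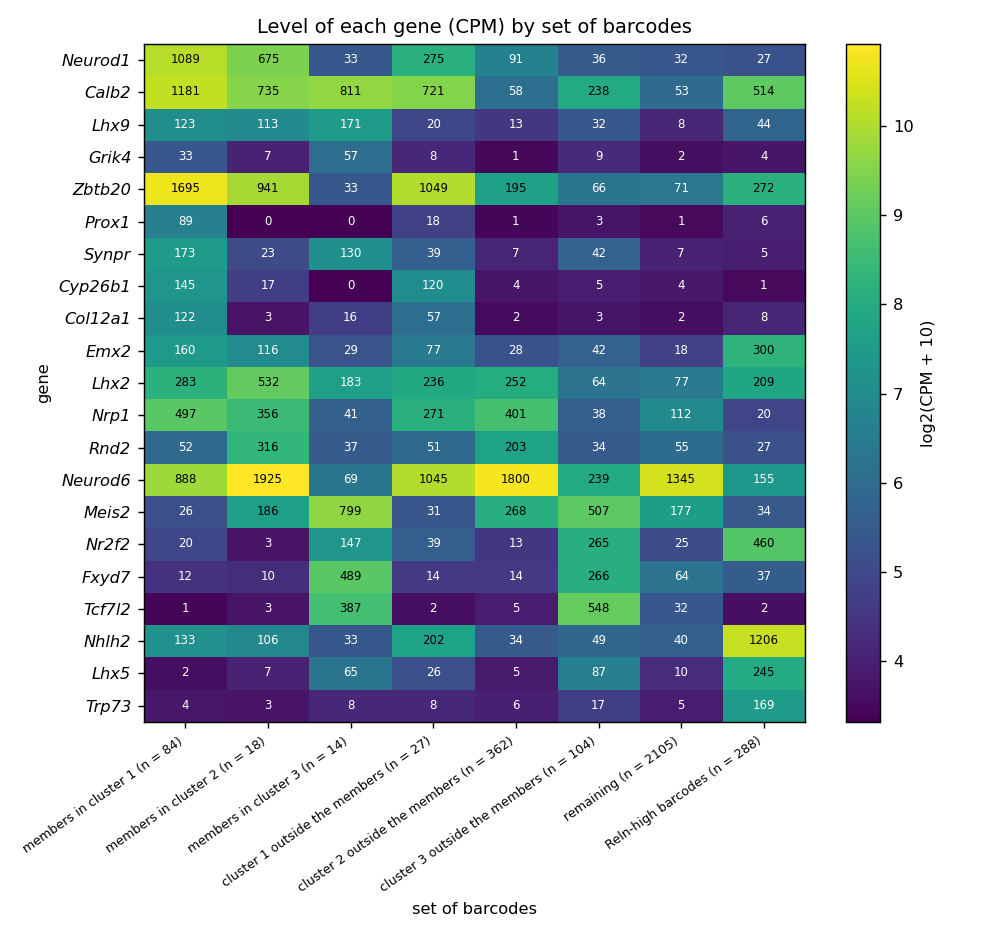
CPM of 21 genes, printed in each cell and coloured as log2(CPM + 10), in members by cluster, in the other barcodes of the same clusters, in all remaining and in Reln-high barcodes. Members of clusters 1 and 2 share Neurod1 and Zbtb20, members of cluster 3 share Calb2 and Lhx9 with them but have Meis2 and Fxyd7, and Prox1 appears in members of cluster 1.

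The 27 barcodes of cluster 1 outside the members had 1049 CPM of Zbtb20 and 120 CPM of Cyp26b1, and less Prox1 (18.3 CPM) and Synpr (38.7 CPM) than the 84 members of the same cluster, at 88.9 and 173 CPM. Genes were counted against 3 larger sets. Of 6984 genes measured against cluster 2 outside the members, 2.68% were at least 2-fold higher and 1.12% lower, led by Synpr, Col12a1 and Cyp26b1 on the high side and by Pou3f1, Pantr1 and Ptn on the low side. Pou3f1, a POU factor of upper-layer neurons, was at 1.93 CPM against 65.2 CPM. Against cluster 3 outside the members 3.22% of 5065 genes were higher and 3.44% lower, led by Zbtb20 and Ezr and by Npy (17.4 CPM against 380 CPM) and Tcf7l2. Against the Reln-high barcodes 3.26% of 7060 genes were higher and 4.33% lower. Fgfr1, Nrp1 and Epha4 led the higher genes, with Epha4, an ephrin receptor, at 271 CPM against 13.7 CPM, and Lhx5 and Trp73, factors of CR neurons, were at 11.6 and 5.80 CPM in the members against 245 and 169 CPM. Emx2 was lower in the members than in the Reln-high barcodes, at 137 CPM against 300.0 CPM, and Calb2 was at 514 CPM in the latter.

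Within cluster 1 the members split over Prox1. At equal depth, 36 of the 84 members there had a Prox1 UMI, all of them with Zbtb20, while 0 of the 36 members outside cluster 1 had both genes, which allows a share of up to 9.74% by the exact interval. Both were present in 11 of 2105 remaining barcodes, 0.523%. Zbtb20 and Prox1 were not left out of the clustering, so the contrast between members inside and outside cluster 1 is a description. Synpr was at 381 CPM in the 36 members with Prox1 and 64.1 CPM in the 48 without, a log2 ratio of 2.57 (2.02 to 3.16), and was detected in 33 and 17 of them. Neurod1 was at 1568 against 875 CPM and Calb2 at 1897 against 787 CPM. Lhx9 was lower with Prox1, at 64.8 against 148 CPM, a log2 ratio of -1.19 (-1.90 to -0.52), with UMIs in 13 of 36 and 39 of 48. Lhx2 was at 143 against 330.4 CPM and Neurod6 at 435 against 1209 CPM. Zbtb20 was high in both, at 1882 and 1635 CPM, and Cyp26b1, Col12a1, Emx2 and Bhlhe22 had intervals that include 0. Lef1 was lower with Prox1, at 2.59 against 21.4 CPM, a log2 ratio of -3.04 (-8.47 to -0.26), with UMIs in 1 of 36 and 10 of 48. Over all of cluster 1 its interval includes 0 (-8.06 to 0.15). Neurod1, Calb2 and Lhx9 were used for the choice, which can by itself turn them against each other among the members, so their values in this split are a description from which nothing is read. Over all 111 barcodes of cluster 1, of which 84 are the same members, the log2 ratio of 40 barcodes with Prox1 over 71 without was 2.80 for Synpr, -1.48 for Neurod6 and -0.53 for Lhx2. Neither split was a comparison of samples.

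**Figure D5:**
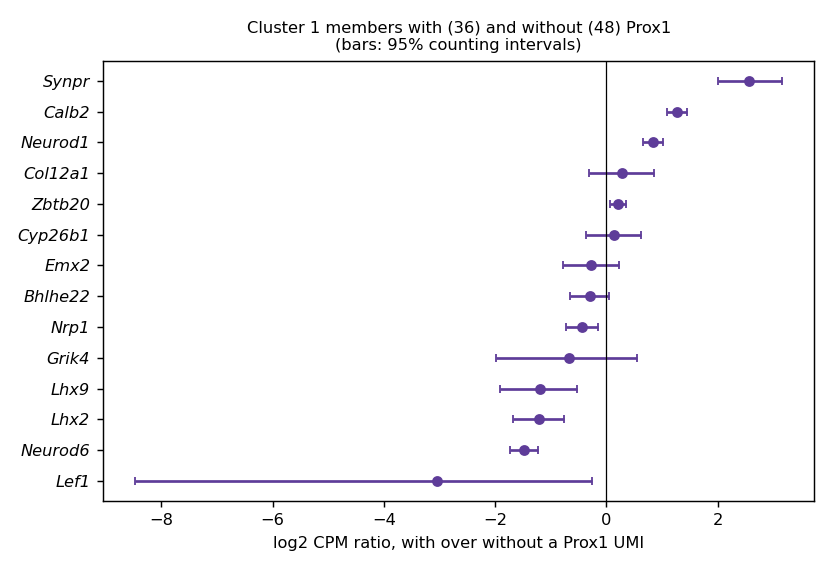
Log2 CPM ratios, at equal depth, of 36 members of cluster 1 with a Prox1 UMI over 48 without, with 95% counting intervals. Synpr lies to the right, Lef1, Neurod6 and Lhx2 to the left, and Zbtb20 close to 0, while Neurod1, Calb2, Lhx9 and Grik4 were used for the choice.

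Across the 2225 eligible barcodes the genes whose level most followed the score were Zbtb20, Sema3c, Nrp2, Zfp536, Gabra2, Col12a1, RP23-291B1.2, Lhx2, Tmem132c and Gldc, with Spearman correlations from 0.39 to 0.27. Cdh13, Sox5 and Dync1i1 were the most negative, at -0.36, -0.35 and -0.34. These are descriptions over barcodes of 1 library, which share their depth with the score. Within the 84 members of cluster 1, Prox1 and Synpr had a correlation of 0.73.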

How the data were processed

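Single cells of sorted Ebf2-EGFP positive cortex were profiled by droplet RNA-seq. The authors deposited raw UMI counts per gene and barcode, made with Cell Ranger 2.0.0. The submitters' processing notes also name Seurat 2.0 and mm10, and coordinates here are of GRCm38, the same build. The 27998 genes and 3000 barcodes (10718 to 76690 UMIs) were read with Python 3.11.15, scipy 1.17.1, scanpy 1.11.5 and scikit-learn 1.9.0. The members and the gene lists were chosen with earlier results of these data known.

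Levels are UMIs per 1000000 of summed counts (CPM) with exact Poisson intervals, ratios have exact conditional binomial intervals and shares Clopper-Pearson intervals. Ratios for calls had 10 CPM added, over genes with at least 100 UMIs, without the 4 selecting genes and Reln. Named genes were the 12 highest and 12 lowest, detected in at least 20% of the higher side with no barcode holding over 25% of its UMIs, outside mitochondrial, haemoglobin, Xist and Y-linked genes, and all list genes, of which some are not reported here. Clusters used 2000 variable genes, 20 components and K-means with 8 clusters. No cell labels of the study were used, so clusters were rebuilt and numbered. Likely doublets were kept and left out in an alternative. The ratio and selection steps were tested on simulated data, and 17 alternatives were tried, with 2 more added after seeing the data.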

Additional observations from a re-analysis of the deposited data

How the results depend on the processing

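Under the alternatives that give gene counts, which the 3 on clusters and components do not, the counts of genes at least 2-fold apart stayed within 1.5 times of 194 higher and 130 lower, except for 64 lower with 240 members, 430 higher and 393 lower with a pseudocount of 1 CPM, and 206 lower with the members of cluster 1 alone, an alternative added after seeing the data. Members chosen on 1 random part of the UMIs and measured on the other gave 177 and 126, of which 149 and 106 were shared with the full data. The share of members in the leading cluster moved to 93.3% with 60 members, 42.1% with 240, 57.5% both without a limit on UMIs and with at most 20000, and 60% with Leiden clusters. The share of neighbours moved to 55.8% with 60 members. The hippocampal median moved from 0.47 to 0.12 (60 members), 0.064 (no limit on UMIs), 0.19 (at most 20000 UMIs), -0.019 (no limit on Reln), 0.074 (separate UMIs), 0.090 (at least 20 UMIs), 0.078 (no filter) and 0.23 (cluster 1 alone), so its sign and size are not firm. The cause was not tested beyond the filter, which changes which genes enter.

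The held-out log2 ratios were positive throughout. Neurod1 moved to 3.74 (60 members), 3.97 (240), 3.23 (no limit on UMIs), 4.23 (at most 20000), 3.40 (no limit on Reln), 3.52 (separate UMIs) and 3.99 (thinned), Lhx9 to 2.67, 3.42, 2.52 and 2.37 (no limit on UMIs, at most 20000, no limit on Reln, separate UMIs), and Calb2 to 3.46 (240), 2.78, 3.77, 2.44, 3.50 (Reln under 2), 3.54 (without barcodes with Xist and Y-linked UMIs), 3.01 (separate UMIs) and 3.45 (mean of each barcode). Of 2736 values for 171 single genes, 2368 stayed within their counting intervals, 190 moved higher, 176 lower and 2 changed sign: Sst to 0.094 with at most 20000 UMIs and Barhl2 to -0.41 with cluster 1 alone. No paired analysis was possible because cells were deposited together without sample names, which also means that leaving out a replicate was not run. The automatic Scrublet threshold marked 1 barcode and was not used.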

Other observations

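Genes outside the fixed lists, chosen after their values were seen, included further guidance receptors among the higher genes. Nrp2, a semaphorin receptor, was at 145 CPM against 31.4 CPM in the remaining barcodes, a log2 ratio of 2.21 (2.02 to 2.40), and Epha4 at 271 CPM against 52.6 CPM, 2.36 (2.22 to 2.50). Stat3, a transcription factor of cytokine signalling, was at 83.6 CPM against 8.17 CPM, and Gldc, an enzyme of glycine breakdown, at 43.5 CPM against 1.55 CPM. The nuclear factor I genes, whose products are known in hippocampal and cortical differentiation, were abundant on both sides: Nfix was at 1376 CPM against 1173 CPM, Nfib at 1015 CPM against 1206 CPM and Nfia at 428 CPM against 435 CPM.

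Barcodes left out of the choice also reached the score of the last member. Of 270 barcodes above 25000 UMIs with low Reln, 31 did so (11.5%, exact interval 7.94 to 15.9%), against 5.39% of eligible barcodes. Of 288 Reln-high barcodes with at most 25000 UMIs, 16 did so (5.56%), and of 217 above that limit, 15 (6.91%).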
